A study of Mus musculus with 8 samples.

Results

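The nuclear factor I (NFI) family consists of 4 transcription factor genes in the mouse, Nfia, Nfib, Nfic and Nfix, and their transcripts were followed in developing mouse retina. The members were taken by symbol, with earlier results of these data known. All 4 had a row in each of the 8 expression tables, out of 21828 genes. Retinas came from mice of the slc:ICR background, with no allele or agent named for any group. Whole retina was measured at embryonic day 15 (E15) and embryonic day 18 (E18). At postnatal days 2, 5 and 8 (P2, P5 and P8), cells carrying the surface protein Cd73 (the Cd73PC fraction) and cells lacking it (the Cd73NC fraction) were separated by flow cytometry. Cd73, the product of Nt5e, appears on rod precursors and stays on rods, so that Cd73NC is what remains, a mixture of progenitors, glia, bipolar cells and other neurons. Retinas of many animals were pooled for a sort, and there was 1 library per condition, so no difference at a single age has a replicate check. Both fractions of an age came from the same retinas, and only the difference between the fractions over the 3 ages together could be tested.

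NFI proteins bind DNA as homodimers or heterodimers through a conserved amino-terminal domain, at a palindrome made of TTGGC, a short spacer and its reverse complement. Nfia and Nfib are best known for their part in the switch of neural progenitors from making neurons to making glia. In the retina Nfia, Nfib and Nfix are known as regulators of late progenitors, needed for leaving the cell cycle and for making bipolar cells and Müller glia, whereas Nfic is better known from tooth root formation.

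Levels were deposited as FPKM, fragments per kilobase of transcript scaled to all mapped fragments, which can be compared between genes because they are divided by transcript length. Each FPKM came with a lower and an upper bound from Cufflinks, which cover uncertainty within a library and not the spread between animals. Differences were taken as the log2 ratio of FPKM + 1, and a gene was counted as higher or lower where FPKM + 1 differed more than 1.5-fold. Depth relative to E18 ranged from 0.965 to 1.62, and 11152 to 12414 genes per library reached an FPKM of 1. The sort was visible in Nt5e, at 2.43, 31.4 and 9.38 FPKM in Cd73NC and 97.3, 131 and 124 FPKM in Cd73PC at P2, P5 and P8, and 10 of 10 rod markers were higher in Cd73PC at each age.

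The 4 genes lie apart in the genome (NCBI37/mm9), although Nfia and Nfib share a chromosome. Nfia spans chr4:97248634-97785567 on the plus strand, Nfib chr4:81936077-82151212 on the minus strand, Nfic chr10:80858936-80889918 on the minus strand, and Nfix chr8:87231498-87324239 on the minus strand. Family members resemble each other in the exons of the DNA-binding domain, which matters for reads of 36 bases. No run of 36 bases was common to annotated coding transcripts (GENCODE) of any pair of members. The longest run shared by the coding sequences of Nfic and Nfix, and that of Nfib and Nfix, are shown because they set the limit for telling the genes apart, with capitals marking bases that are identical in both genes.
Nfic and Nfix, 32 bases: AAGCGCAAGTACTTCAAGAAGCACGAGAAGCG
Nfib and Nfix, 21 bases: ATCAAGCAGAAGTGGGCATCC
The other 4 pairs shared coding runs of 17 or 18 bases at most, so within these transcripts an exactly matching read fell to 1 member. Runs of 36 bases shared with genes outside the family made up 0.150% of those of Nfia and 1.67% of those of Nfix, and there were none in Nfib or Nfic.

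Sequence before the transcription start was printed for Nfia and Nfic, the members that differed most between the fractions in opposite directions at P8. These are the 250 bases upstream of the start, from RefSeq (GRCm38.p6), found at 1 place each in NCBI37/mm9 and ending next to the gene's start in the deposited tables, with CG dinucleotides in capitals.
Nfia, chr4:97248384-97248633, plus strand: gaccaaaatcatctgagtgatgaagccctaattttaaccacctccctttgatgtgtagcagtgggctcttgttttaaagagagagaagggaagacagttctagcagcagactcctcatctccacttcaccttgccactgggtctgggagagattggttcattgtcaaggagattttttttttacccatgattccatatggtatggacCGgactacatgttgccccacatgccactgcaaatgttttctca
Nfic, chr10:80889919-80890168, minus strand: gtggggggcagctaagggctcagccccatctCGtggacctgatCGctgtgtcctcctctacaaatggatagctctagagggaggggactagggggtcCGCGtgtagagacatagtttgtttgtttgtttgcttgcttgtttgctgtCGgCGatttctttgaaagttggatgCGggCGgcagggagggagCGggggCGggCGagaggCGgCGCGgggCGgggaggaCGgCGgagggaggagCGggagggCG
The stretch before Nfic held 19 CG dinucleotides and that before Nfia held 1, against a median of 6 over 32851 promoters. GC made up 63.2% and 44.8% of the bases of these stretches, against a median of 52.4%. A search on both strands for the NFI palindrome with 5 spacer bases, for a single TTGGC (which every palindrome also contains), for TAATCC (a site of Crx and Otx2) and for TGCTGA (a site of Nrl) found no match in either stretch. In the window of 300 bases, which adds 50 after the start, Nfia held 1 TGCTGA and Nfic held none of these motifs. The 4 motifs were present in 0.0365%, 46.7%, 7.06% and 19.5% of all promoters of 300 bases. The count of CG dinucleotides was added after the motif search had found nothing, and no match says only that these letters are not in these windows. The start listed for Nfia in the deposited tables had no counterpart in the GENCODE annotation, whose nearest Nfia start was 190791 bases away, so this start rests on RefSeq. Nfix starts listed by RefSeq lay 20258 bases or more from the start in the tables, and their sequences are not printed, and Nfib had no entry.

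Nfix, a factor of late progenitors and glia, had the widest range of the family, 125-fold between its lowest and highest FPKM. Its level was 0.568 FPKM at E15 and 10.3 FPKM at E18 in whole retina, 19.1, 70.9 and 31.1 FPKM in Cd73NC and 8.66, 14.1 and 7.35 FPKM in Cd73PC at P2, P5 and P8. Nfix was thus close to absent at E15, was highest in Cd73NC at P5, and was lower in Cd73PC than in Cd73NC at every age. The 125-fold was taken without a pseudocount and rests on the level at E15, whose bounds ran from 0.296 to 0.847 FPKM.

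Nfib, which acts with Nfia in gliogenesis, had levels of 2.59 and 7.46 FPKM at E15 and E18, of 14.3, 39.6 and 22.7 FPKM in Cd73NC, and of 10.8, 7.09 and 4.16 FPKM in Cd73PC. It also was highest in Cd73NC at P5, whereas in Cd73PC its level was lower at each later age.

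Nfia, the member with the lowest level in all 7 libraries after E15, had 1.62 and 3.62 FPKM at E15 and E18, 5.06, 10.04 and 10.4 FPKM in Cd73NC, and 2.47, 2.03 and 1.199 FPKM in Cd73PC. In Cd73NC the bounds of P5 (9.43 to 10.7 FPKM) and P8 (9.84 to 10.95 FPKM) overlapped, so its levels at those ages did not differ beyond the uncertainty within a library.

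Nfic was the exception in the family. Its level was 4.78 and 6.67 FPKM at E15 and E18, 5.85, 22.5 and 15.9 FPKM in Cd73NC and 21.5, 36.4 and 32.6 FPKM in Cd73PC at P2, P5 and P8. Nfic was higher in Cd73PC than in Cd73NC at each age, and its bounds did not overlap between the fractions. Most genes past 1.5-fold had such bounds, since also asking for no overlap left 0.912 to 0.986 times as many genes called.

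**Figure D1:**
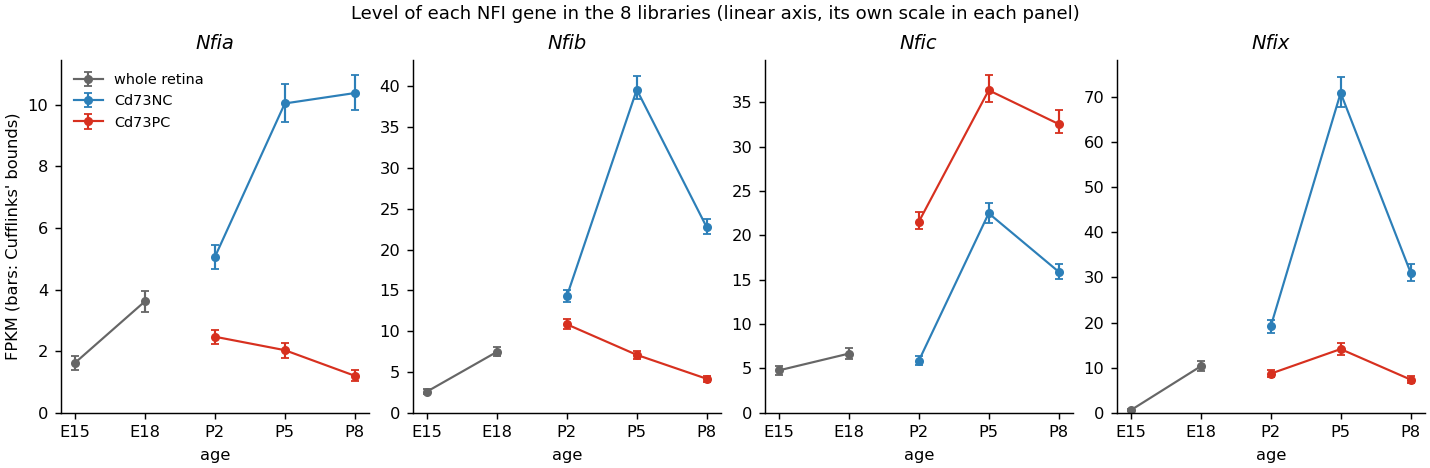
FPKM (linear vertical axis, separate scale in each panel) of Nfia, Nfib, Nfic and Nfix by age, with whole retina in grey, Cd73NC in blue, Cd73PC in red and bars from Cufflinks' lower to upper bound, 1 library per point. Cd73NC is above Cd73PC for Nfia, Nfib and Nfix at P2, P5 and P8, and below it for Nfic, which reaches 36.4 FPKM in Cd73PC at P5.

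The comparison of Cd73PC with Cd73NC asked which members are expressed in the rod lineage and which in the other cells. At P2, Nfic was 3.29-fold higher in Cd73PC on the scale of FPKM + 1 (log2 ratio 1.72), and 8.56% of all genes were higher in Cd73PC. Nfia and Nfix were lower in Cd73PC, with log2 ratios of -0.80 and -1.06, where 14.4% of all genes were lower. After quantile normalization Nfia no longer passed 1.5-fold at P2, at -0.58. Nfib did not pass 1.5-fold at P2 (log2 ratio -0.37), though its bounds did not overlap between the fractions. So 1 member was higher in Cd73PC at P2 and 2 were lower.

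At P5 the 3 other members were all lower in Cd73PC, by log2 ratios of -1.86 for Nfia, -2.33 for Nfib and -2.25 for Nfix, which is 3.64-fold, 5.02-fold and 4.76-fold higher in Cd73NC. Of all genes, 15.6% were lower in Cd73PC at P5 and 7.02% were higher. Nfic was again higher in Cd73PC, with a log2 ratio of 0.67, just past 1.5-fold, and with a limit of 2-fold it did not pass at P5 or P8.

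At P8 the log2 ratios were -2.37 for Nfia, -2.20 for Nfib and -1.94 for Nfix, and 18.6% of all genes were lower in Cd73PC. Nfic had a log2 ratio of 0.99, and 7.54% of all genes were higher in Cd73PC. For Nfia, Nfib and Nfix alike, the level at P8 was above that at P2 in Cd73NC. In Cd73PC the level at P8 was below that at P2 for Nfia and Nfib. For Nfix in Cd73PC the bounds of P2 and P8 overlapped. Its levels at those ages thus did not differ beyond the uncertainty within a library. Genes without reads could not be called in either direction, and among genes with FPKM of at least 1 in either fraction the shares higher in Cd73PC were 14.5%, 12.3% and 13% at P2, P5 and P8. The shares lower in Cd73PC were then 25%, 27% and 31.3%, and the median log2 ratio of these genes was -0.14, -0.18 and -0.23. In bulk samples, fewer cells of a type and less RNA per cell cannot be told apart.

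Over the 3 pairs of fractions, with age as a block, all 4 members differed between Cd73PC and Cd73NC. The mean log2 ratio was 1.13 ± 0.23 (SE) for Nfic, with an adjusted p of 0.020 (limma, Benjamini-Hochberg over 13053 genes with FPKM of at least 1), and Nfic was higher in Cd73PC in 3 of 3 pairs. The ratios were -1.68 ± 0.32 for Nfia (limma adjusted p 0.018), -1.63 ± 0.41 for Nfib (0.036) and -1.75 ± 0.25 for Nfix (0.0080), each lower in Cd73PC in 3 of 3 pairs. By this test 8.89% of genes were higher and 19.2% lower in Cd73PC. It treats ages as replicates, so it says nothing of a single age, and no gene passed when silent genes were kept in the fit (5569 had an unadjusted p under 0.05, and the adjusted p of the members was then 0.10 to 0.22). Without the P5 pair 1.33% of genes were higher and 0.72% lower, and none of the 4 members passed (limma adjusted p 0.080 to 0.21). Without the P8 pair the shares were 6.26% and 13.8%, and Nfib did not pass (0.11).

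**Figure D2:**
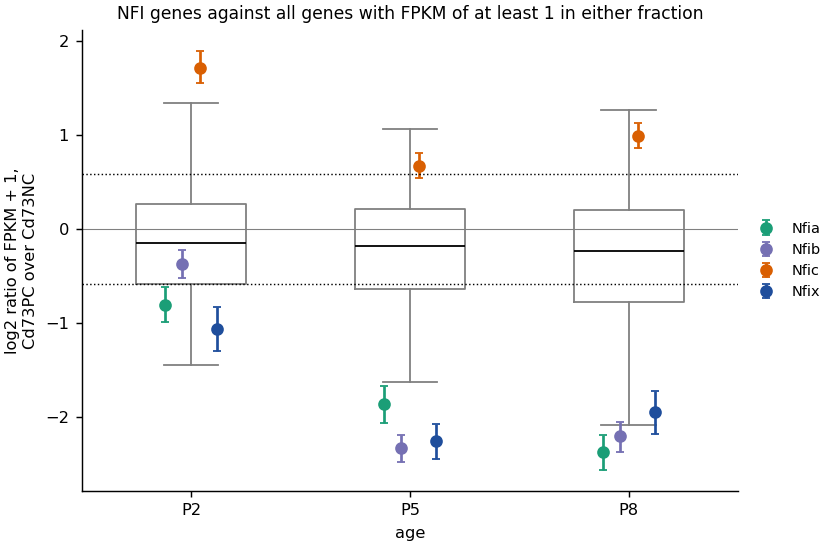
Log2 ratio of FPKM + 1 of Cd73PC over Cd73NC (vertical axis) at P2, P5 and P8 for the 4 NFI genes (coloured points, with bars for the most extreme ratios that Cufflinks' bounds allow) over all genes with FPKM of at least 1 in either fraction (box: quartiles and median, whiskers: percentiles 5 and 95). Dotted lines mark 1.5-fold. At P5 Nfia, Nfib and Nfix lie below the lower whisker, and at P2 Nfic lies above the upper one.

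A sorted fraction can hold cells of the other kind, so the NFI genes were set beside genes that mark cells other than photoreceptors. In 28 such markers with at least 5 FPKM in Cd73NC at P2, the level in Cd73PC had a median of 25.7% of that in Cd73NC. Nfia stood at 48.8%, Nfix at 45.3% and Nfib at 75.9%, with 3, 4 and 2 of the 28 markers above them. The members thus stood above most of these markers at P2. The 8 Müller glia markers among them had a higher median, 37.4%, with 2, 3 and 1 of the 8 above Nfia, Nfix and Nfib. The markers above Nfib were Slc6a9, a glycine transporter, at 731%, and Apoe, a lipid carrier of glia, at 147%. With a minimum of 1 FPKM there were 38 markers at P2, and 11, 12 and 9 of them were above Nfia, Nfix and Nfib.

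At P5 all 3 members lay below the median marker, and at P8 Nfix alone lay above it. At P5 the median of 35 markers was 28.5%, against 20.2% for Nfia, 17.9% for Nfib and 19.9% for Nfix. At P8 the median of 31 markers was 18.7%, with Nfia lower at 11.6%, Nfib close to it at 18.3% and Nfix at 23.6%, with 12 of the 31 markers above. All 10 markers of dividing progenitors were above the 3 members at P5, while 8 bipolar markers had a median of 16.1%. Between these, 9 Müller glia markers had a median of 21.5% at P5, with 5 of them above each member. At P8 10 Müller glia markers had a median of 18.5%, with 9, 5 and 3 above Nfia, Nfib and Nfix.

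**Figure D3:**
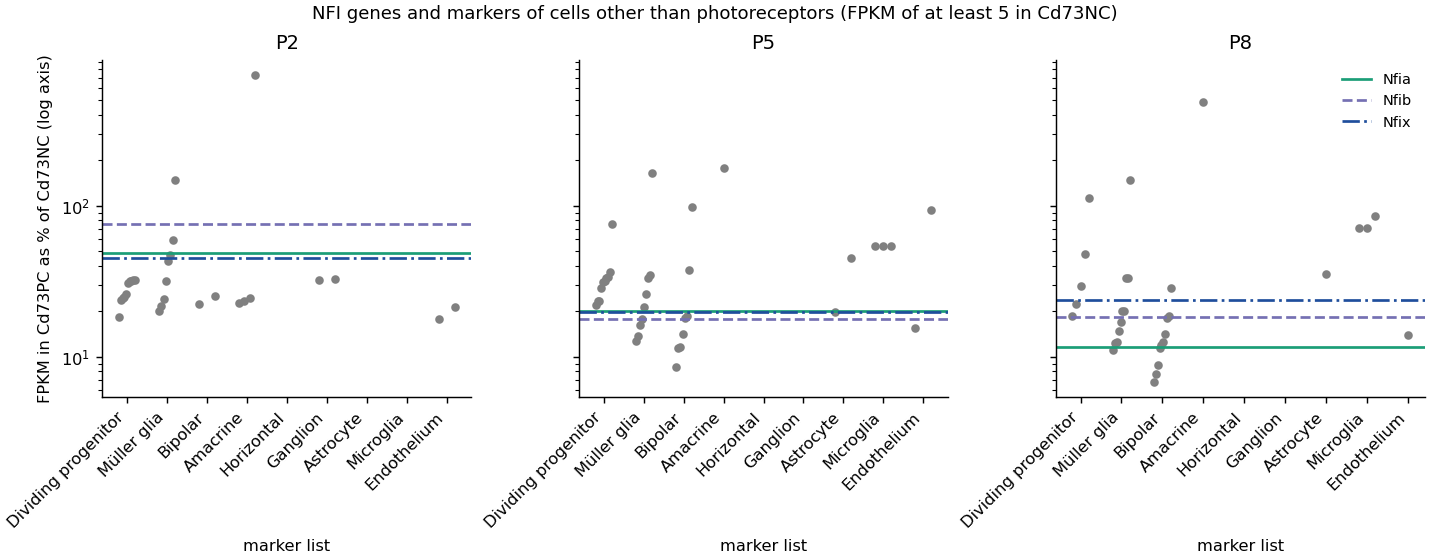
FPKM in Cd73PC as a percentage of FPKM in Cd73NC (log vertical axis) at P2, P5 and P8 for markers of cells other than photoreceptors with at least 5 FPKM in Cd73NC, 1 grey point per gene, grouped by list. Horizontal lines mark Nfia, Nfib and Nfix, which stand above most points at P2 (48.8%, 75.9% and 45.3%) and among or below them at P5 and P8.

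For Nfic the question runs the other way, how much of it was found in Cd73NC. Its level in Cd73NC was 27.2%, 61.8% and 48.8% of that in Cd73PC at P2, P5 and P8. Over 10 rod markers the medians were 1.08%, 8.50% and 6.56%, and the highest were 4.74% (Gnat1), 21.1% (Nrl) and 9.11% (Rom1). Nfic in Cd73NC was therefore above all 10 rod markers at each age, measured against its own level in Cd73PC.

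Markers of astrocytes and microglia were mostly higher in Cd73PC at P2 but not at P5 or P8. Those of dividing progenitors and Müller glia were mostly higher in Cd73NC at each age. Of 5 astrocyte markers 4 were higher in Cd73PC at P2, their summed level being 2.90 FPKM in Cd73NC and 26.0 FPKM in Cd73PC, and 4 of 4 microglia markers were higher too, at 3.03 and 16.2 FPKM. None of the 9 genes was at 0 in P2 Cd73NC, but 4 and 3 of them were below 1 FPKM there. At P5 and P8 the count higher in Cd73PC was 0 for both lists. Astrocytes express Nfia, Nfib and Nfix, and the part of such cells in the P2 levels was not tested.

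In whole retina, 3 of 4 members were higher at E18 than at E15, where 4.61% of all genes were. Nfix had a log2 ratio of 2.85, Nfib of 1.24 and Nfia of 0.82, and Nfic missed 1.5-fold at 0.41. The ratio of Nfix depends on its low level at E15, whose bounds ran from 0.296 to 0.847 FPKM.

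Between E18 whole retina and the P2 fractions the members parted. Against E18, Nfib (log2 ratio 0.85) and Nfix (0.83) were higher in P2 Cd73NC, as were 3.2% of all genes. Nfia (0.39) and Nfic (-0.16) did not pass, but Nfia did after quantile normalization, at 0.65. In P2 Cd73PC Nfic was higher than at E18, with a log2 ratio of 1.55 where 8.78% of all genes were higher. Nfib (0.48), Nfix (-0.23) and Nfia (-0.41) did not pass there, but Nfib did after quantile normalization, at 0.75. These comparisons set whole tissue against a sorted part of it, so age and cell composition cannot be told apart.

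From P2 to P5 all 4 members rose in Cd73NC, as did 7.93% of all genes. The log2 ratios were 1.84 for Nfix, 1.78 for Nfic, 1.41 for Nfib and 0.87 for Nfia. Over the same days the summed level of 10 dividing progenitor markers in Cd73NC went from 2219 to 488 FPKM, that of 11 Müller glia markers from 1179 to 1693 FPKM and that of 10 bipolar markers from 195 to 471 FPKM. The summed level of 10 rod markers in Cd73NC went from 87.3 to 1116 FPKM, and Nt5e also was higher in Cd73NC at P5 than at P2. The part of these shifts in the NFI levels was not tested.

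From P5 to P8 Nfix (log2 ratio -1.16) and Nfib (-0.77) fell in Cd73NC, where 7.78% of all genes fell. Nfic (-0.48) and Nfia (0.04) did not pass. The Müller glia markers went from 1693 to 1439 FPKM and the bipolar markers from 471 to 2482 FPKM over these days. The dividing progenitor markers went from 488 to 118 FPKM in Cd73NC, the rod markers from 1116 to 1035 FPKM and Nt5e from 31.4 to 9.38 FPKM, and the part of these shifts in the NFI levels was not tested.

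In Cd73PC, Nfic (0.73) and Nfix (0.65) rose from P2 to P5, as did 3.36% of all genes, while Nfib (-0.55) and Nfia (-0.19) did not pass. With a pseudocount of 0 or 0.1 Nfib fell past 1.5-fold, at -0.61 or -0.60. From P5 to P8 Nfix (-0.86) and Nfib (-0.65) fell, where 4.78% of all genes fell, and Nfia (-0.46) and Nfic (-0.16) did not pass. After quantile normalization Nfib no longer passed, at -0.51, and with a pseudocount of 0 or 0.1 Nfia passed too, at -0.76 or -0.71. The summed rod markers went from 4332 to 9352 and 14923 FPKM in Cd73PC at P2, P5 and P8, and Nfic thus stayed near its P5 level while these markers went on to higher values.

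The order of the members changed with these levels. At E15 Nfic came first, followed by Nfib, Nfia and Nfix, with no overlap of bounds between neighbours. At E18 Nfix led, and the bounds of Nfib and Nfic overlapped. In Cd73NC the order was Nfix, Nfib, Nfic and Nfia at every age, and Nfic and Nfia overlapped at P2. In Cd73PC Nfic led at every age, 1.99-fold above Nfib at P2 and 2.58-fold and 4.43-fold above Nfix at P5 and P8.

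As a share of the summed FPKM of the family, Nfic made up 49.99% at E15, 23.8% at E18, 13.2%, 15.7% and 19.9% in Cd73NC and 49.5%, 61.0% and 71.9% in Cd73PC at P2, P5 and P8. The share of Nfix was 5.94% at E15, 36.7% at E18 and 43.2%, 49.6% and 38.8% in Cd73NC. The summed level itself was 9.56 FPKM at E15 and 28.1 FPKM at E18, 44.3, 143 and 80.1 FPKM in Cd73NC and 43.5, 59.6 and 45.3 FPKM in Cd73PC. At P2 the fractions thus held nearly the same total of NFI transcripts per length, made up of different members.

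**Figure D4:**
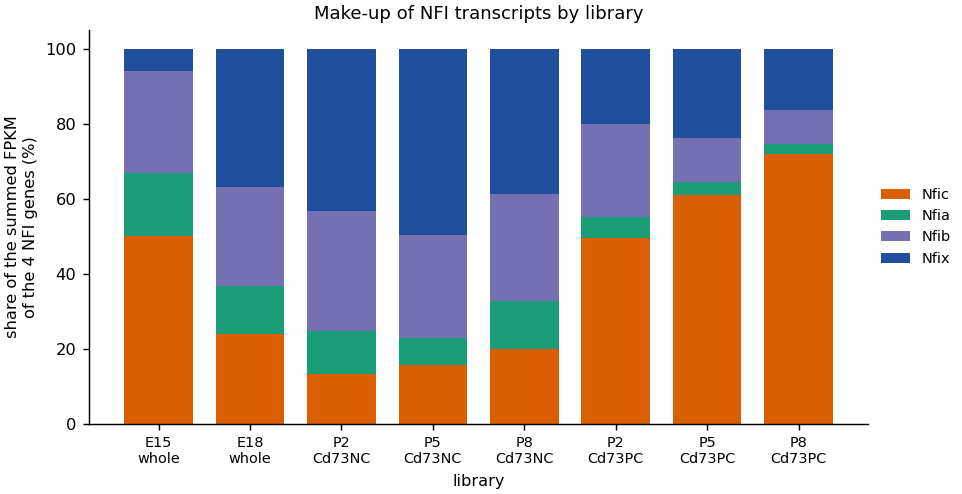
Share of the summed FPKM of the 4 NFI genes (vertical axis, percent) taken by Nfic, Nfia, Nfib and Nfix (stacked colours) in each of the 8 libraries. Nfic takes 49.5% to 71.9% in Cd73PC and 13.2% to 19.9% in Cd73NC, where Nfix takes 38.8% to 49.6%.

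Among the members, profiles over the 8 libraries were compared by the root mean square difference of log2(FPKM + 1) after the mean of each gene was removed. Nfia and Nfib were closest (0.43), followed by Nfib with Nfix (0.65) and Nfia with Nfix (0.96). Nfic differed from the other three by 1.31 to 1.44. For scale, the median difference to all 8801 genes that reached 10 FPKM in any library was 0.91 for Nfia, 1.13 for Nfib, 1.12 for Nfic and 1.56 for Nfix.

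The gene closest to Nfib was Zcchc24 (0.24), which encodes a zinc finger protein and has itself been reported as an NFI target. Its level was 0.986 and 3.41 FPKM at E15 and E18, 6.15, 17.2 and 8.10 FPKM in Cd73NC and 3.06, 3.70 and 1.61 FPKM in Cd73PC. Like Nfib it was highest in Cd73NC at P5. Cd9, a tetraspanin, Sema5b, Clrn1 and Bves came next.

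Nfia was closest to Creg2 (0.22), Clrn1, Hs3st1, Pbxip1 and Pak3, a p21-activated kinase. Nfix was closest to Crym, a thyroid hormone-binding protein, at 0.42, and then to Sat1, Rlbp1, Ttyh1 and Omg. Rlbp1 encodes the retinaldehyde-binding protein of Müller glia and had 2.65 and 25.9 FPKM at E15 and E18, 83.1, 264 and 193 FPKM in Cd73NC and 39.2, 68.8 and 39.1 FPKM in Cd73PC. Nfic was closest to Zfp444 (0.15), a zinc finger protein, which had 15.1 and 19.4 FPKM at E15 and E18, 17.9, 51.9 and 48.998 FPKM in Cd73NC and 68.0, 92.4 and 75.3 FPKM in Cd73PC. It was followed by 6430571L13Rik, Gdpd5, Acsl6 and Phactr1. These are likenesses over 8 libraries that share the sort and the ages, and the genes with the smallest differences were picked by that measure.

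**Figure D5:**
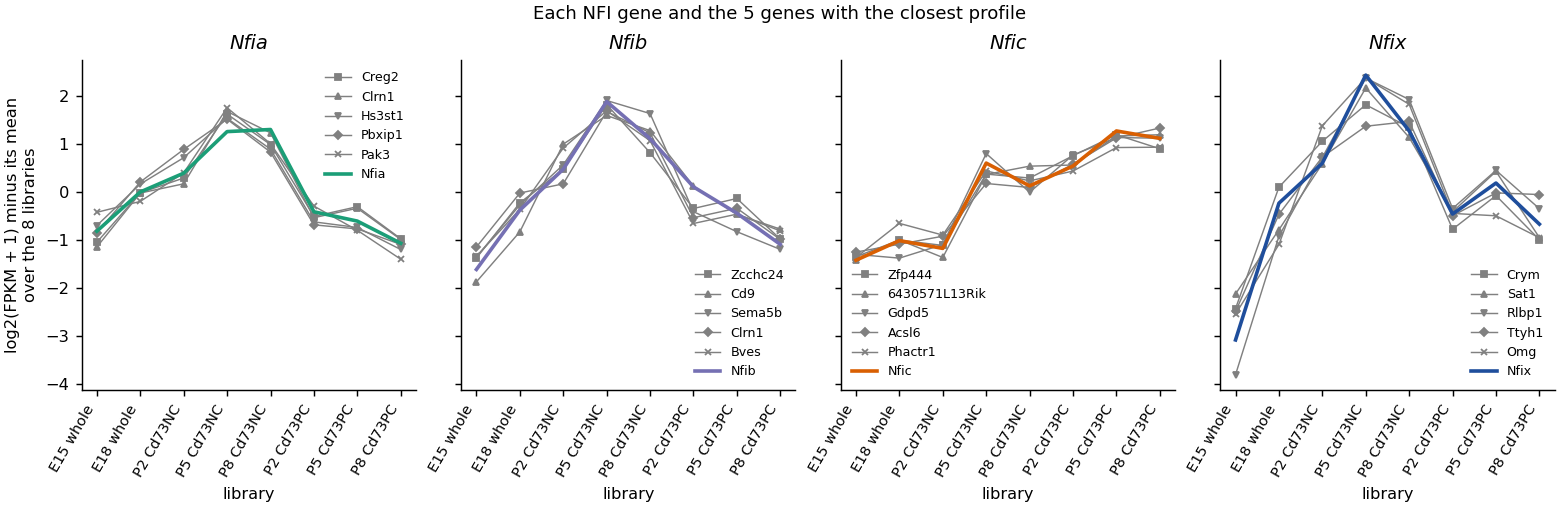
Profiles over the 8 libraries as log2(FPKM + 1) minus the gene's mean (vertical axis), with 1 panel per NFI gene (thick line) and its 5 closest genes (grey). The panels of Nfia, Nfib and Nfix peak in Cd73NC at P5 or P8, and that of Nfic peaks in Cd73PC.

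Of 12 genes reported elsewhere as NFI targets in nervous tissue, 4 were higher in Cd73PC, 5 higher in Cd73NC and 3 neither at P2, against 8.56% and 14.4% of all genes. At P5 these counts were 1, 10 and 1, against 7.02% and 15.6% of all genes, and at P8 they were 2, 9 and 1, against 7.54% and 18.6%. The median log2 ratio of Cd73PC over Cd73NC was -0.15, -1.03 and -1.17 at P2, P5 and P8, beside -0.14, -0.18 and -0.23 over the genes with FPKM of at least 1. The list includes Ezh2, a histone methyltransferase, which was higher in Cd73NC at each age, and Gabra6, a receptor subunit of cerebellar granule cells, was listed at 0 in all libraries.

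Among these genes, Slc1a3, the glial glutamate transporter, had 146, 180 and 124 FPKM in Cd73NC and 46.6, 31.8 and 21.0 FPKM in Cd73PC at P2, P5 and P8. Hes1, a Notch effector of progenitors and glia, had 56.9, 22.9 and 16.6 FPKM in Cd73NC and 13.7, 4.66 and 2.09 FPKM in Cd73PC. Both were higher in Cd73NC at every age, as were Nfix and Nfia.

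Mmd2, a membrane protein reported as a target of Nfia in the spinal cord, went with Nfic instead. It had 2.15, 26.4 and 32.5 FPKM in Cd73NC and 33.1, 55.1 and 62.2 FPKM in Cd73PC, and so was higher in Cd73PC at each age. Gfap, the intermediate filament of astrocytes, was higher in Cd73PC at P2 (2.52 against 0.187 FPKM) and in Cd73NC at P5 (5.22 against 2.36 FPKM) and P8 (4.88 against 2.04 FPKM). S100b, a calcium-binding protein of glia, turned in the same way, from 3.76 against 0.0358 FPKM at P2. Gfap and S100b are also among the 5 astrocyte markers described above.

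Of 16 factors of late progenitors and glia, 15 were higher in Cd73NC at each of P2 and P5, and 14 at P8, with median log2 ratios of -1.89, -2.13 and -2.19. Among genes with FPKM of at least 1, the shares higher in Cd73NC were 25%, 27% and 31.3% and the medians -0.14, -0.18 and -0.23. Sox9, a factor of progenitors and Müller glia, had 35.0, 43.8 and 18.2 FPKM in Cd73NC and 12.4, 7.62 and 3.21 FPKM in Cd73PC. Its log2 ratio of -1.42 at P2 and -2.38 at P5 can be set beside -1.06 and -2.25 for Nfix. Unlike Nfix in Cd73NC, Hes5 and Sox2 did not rise from P2 to P5, with 108 and 81.8 FPKM for Hes5 and 101 and 45.2 FPKM for Sox2. Rax, a homeobox factor also used by photoreceptors, did not differ past 1.5-fold at P2 or P5 and was higher in Cd73PC at P8 (198 against 81.5 FPKM), as was Zfp36l2, an RNA-binding protein (24.1 against 13.6 FPKM).

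Rows next to the members were read for overlap, since the libraries did not keep strand and reads of overlapping genes could not be told apart. E130114P18Rik, on the opposite strand, overlapped the span of Nfia by 2649 bases at its start. It had 65.8, 46.5 and 21.8 FPKM in Cd73NC and 20.4, 11.1 and 3.96 FPKM in Cd73PC, and so was higher in Cd73NC as Nfia was. In GENCODE the annotated exons of both genes shared 4 bases, but that annotation lacks the Nfia start used in the tables, and how much these reads add to Nfia was not tested. Nfib had no other row within 50 kb, and none of the 7 rows within 50 kb of Nfic or the 8 within 50 kb of Nfix overlapped the member's span. Near Nfic, 4930404N11Rik had 9.86, 12.5 and 16.6 FPKM in Cd73NC and 46.5, 64.9 and 56.1 FPKM in Cd73PC, so that it too was higher in Cd73PC. So was F630110N24Rik, with log2 ratios of 1.82, 1.87 and 1.85, whereas Celf5 was lower (-1.15, -0.67 and -2.69). Dohh, a hydroxylase gene closer to Nfic, did not pass 1.5-fold, with 22.2, 22.9 and 22.8 FPKM in Cd73NC and 23.6, 32.7 and 28.6 FPKM in Cd73PC. The closest row, 2210404O07Rik, passed at P5 only (log2 ratio 1.55, from 0.155 and 2.39 FPKM), and Fzr1 and Hmg20b did not pass.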

How the data were processed

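RNA of 8 mouse retinal samples was sequenced by the authors as single-end reads of 36 bases, without strand. The authors aligned reads to NCBI37/mm9 with TopHat2 2.0.8b and estimated expression with Cufflinks 2.1.1, and they deposited FPKM with lower and upper bounds for 23021 rows per library. Read counts were not used here, so the absolute depth is unknown. In each library 4 to 10 rows held a failed estimate and were taken as missing, and in 1428 to 2170 rows the FPKM lay outside its own bounds, but in none of the NFI rows.

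Small RNAs (796 rows) were left out and the rows of 234 symbols were summed with pandas 2.3.3. Ratios used a pseudocount of 1, and 1.5-fold was the limit for a call. The fractions were also compared over the 3 ages with limma 3.58.1 on log2(FPKM + 1), with age as a block, since both came from the same retinas. Scripts were tested on simulated data. Starts were converted to count from 1. The build was checked against GENCODE vM1, where 21112 of 21187 genes overlapped. Named genes were the members, the 5 genes of closest profile to each, members of lists written by hand, Nt5e and rows within 50 kb. The members and lists were chosen with earlier results of these data known. Chosen after values were seen were the fit with age as a block, the directions counted, the share over genes with FPKM of at least 1, the marker minimum of 5 FPKM, the checks of shared sequence, and the count of CG dinucleotides. Of the 8 amacrine markers in the list, 6 were used here. Alternatives were other pseudocounts, thresholds, filters and scalings.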

Additional observations from a re-analysis of the deposited data

Results flagged for a closer look

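The following values were picked out because a gene had opposite signs under the same contrast in different samples, with 1 library per condition, and none of these differences was tested. Nfib had a log2 ratio of P5 over P2 of 1.41 in Cd73NC and -0.55 in Cd73PC, a difference of 1.96. Nfia had 0.87 and -0.19 in the same comparison, a difference of 1.06, but its bounds overlapped in Cd73PC and quantile normalization gave 0.05 there, so the signs were then no longer opposite. From P5 to P8 Nfia had 0.04 in Cd73NC and -0.46 in Cd73PC, a difference of 0.506. Of the ratios just given, only those of Nfia and Nfib from P2 to P5 in Cd73NC passed 1.5-fold. Among the reported targets, the log2 ratio of Cd73PC over Cd73NC of S100b was 2.20 at P2 and -1.21 at P8, a difference of 3.41. That of Gfap was 1.57 and -0.95, a difference of 2.52. That of Fabp7, a fatty acid-binding protein of radial glia, was 1.05 at P2 and -0.82 at P5, a difference of 1.87. At P8 Fabp7 was again higher in Cd73PC past 1.5-fold, with a log2 ratio of 0.69. For these targets only genes past 1.5-fold in both directions were listed, a rule set after the values were seen. At P2 4 of 5 astrocyte markers, S100b and Gfap among them, were higher in Cd73PC, and their part in these values was not tested.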

How the results depend on the processing

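With 1 library per condition, no library could be left out of a group. The fractions were paired by age in a fit added after the data were seen, in which 4 members passed, as they did after quantile normalization. In it 0 passed with all genes kept, and leaving out the pair of P2, P5 or P8 left 4, 0 and 3. Of the genes tested, 7.8%, 1.33% and 6.26% were then higher in Cd73PC and 17.2%, 0.72% and 13.8% lower. The log2 ratios of the members between the fractions kept their sign under every alternative run, for example -3.11 to -1.85 for Nfia and 0.99 to 1.11 for Nfic at P8. Quantile normalization changed 3 counts of members by more than 1.5 times. With it 1 was lower in P2 Cd73PC than in Cd73NC in place of 2. Higher in P2 Cd73PC than at E18 were 2 in place of 1, and 1 fell from P5 to P8 in Cd73PC in place of 2. This scaling also brought Nfia past 1.5-fold in P2 Cd73NC over E18, at 0.65. It also gave small positive log2 ratios where uncalled values had been negative, of 0.02 for Nfic (P2 Cd73NC over E18), 0.07 for Nfia (P2 Cd73PC over E18) and 0.05 for Nfia (P5 over P2 in Cd73PC), and it moved the median log2 ratio of expressed genes between the fractions at P8 from -0.23 to 0.03. A limit of 2-fold left 1 member lower in Cd73PC at P2 and 0 higher in Cd73PC at P5 and at P8. It left 0 higher in P2 Cd73NC than at E18 and 1 lower in Cd73NC at P8 than at P5. In Cd73PC 0 rose from P2 to P5 or fell from P5 to P8. Nfia also missed 2-fold from E15 to E18 (log2 ratio 0.82) and from P2 to P5 in Cd73NC (0.87). The other 8 alternatives changed no count of members past 1.5 times. The number of all genes called changed by 1.65 to 3.22 times with a pseudocount of 0, by 1.34 to 2.32 times with 0.1, by 0.201 to 0.583 times at 2-fold and by 0.681 to 1.62 times with quantile normalization. The largest shift of a member was that of Nfix from E15 to E18, from 2.85 to 4.18 with a pseudocount of 0. Of the 5 genes closest to Nfia, 3 were shared under a pseudocount of 0.1, under quantile normalization and among candidates with FPKM of at least 1, and 3 of 5 for Nfix under a pseudocount of 0.1. In alternatives added after the data were seen, the share of markers above Nfib at P2 was 7.14% with a marker minimum of 5 FPKM, 23.7% with 1 FPKM and 4.76% with 10 FPKM. The bounds of Cufflinks cover a library only, and differences between animals or sorts could not be estimated.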
